A study of Mus musculus with 6 samples.

Results

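The genes described are 8 homeobox transcription factors of the eye field and early retina, Pax6, Rax, Vsx1, Lhx2, Six3, Six6, Meis1 and Meis2, chosen by name out of the 27998 genes of the count table. All 8 were found in the table, and each was followed over the cell type labels the submitters gave to single cells of mouse retinas at embryonic day 14 (droplet single-cell RNA-seq, 10x 3′ v2 chemistry). The 6 libraries used form 3 groups of 2, and none of them had both Bax and Atoh7 intact. By sample title, the Bax null group lacked Bax and kept Atoh7, the Bax het Atoh7 null group lacked Atoh7 and kept 1 Bax allele, and the Bax null Atoh7 null group lacked both. Bax is an effector of mitochondrial cell death, and Atoh7 is a bHLH factor of the progenitors that give rise to ganglion cells. The labels do not state whether replicates came from separate animals, litters or pools of retinas, so every p-value below measures the spread between these libraries only.

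The eye field is the region of the anterior neural plate that gives rise to the retina, and it is marked by the combined expression of Pax6, Rax, Lhx2, Six3 and Six6. After the optic cup forms, these factors stay on in dividing retinal progenitors, where they maintain proliferation and the ability to make all retinal cell types, and several are later kept by particular neurons. Pax6 (paired box and homeodomain) persists in amacrine, horizontal and ganglion cells, Rax (paired-like homeodomain) in photoreceptor precursors. Vsx1 (paired-like homeodomain) is known from bipolar cells that form after birth. Lhx2 is a LIM homeodomain factor, Six3 and Six6 are paralogs of the Drosophila gene sine oculis, and Meis1 and Meis2 are TALE homeodomain partners that act upstream of Pax6 in the eye.

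The libraries held 67050 cells, of 93128 cells in the table, in 5 labels: retinal progenitors (RPCs), neurogenic cells, retinal ganglion cells (RGCs), cones and horizontal cells. Library totals ran from 22463515 to 66594431 UMIs (unique molecular identifiers, each counting 1 captured transcript). Both Bax null libraries stood apart, with a median of 5660.5 and 6804 UMIs a cell against 1634 to 2632 in the other 4. They also had mitochondrial shares of 3.80% and 3.90% against 1.06% to 1.15%, and a summed level of 6 blood genes over all cells of 1162 and 1381 CPM (UMIs of a gene as a share of the total, scaled to 1e6) against 7.40 to 213. Library preparation and genotype therefore cannot be told apart in any comparison with the Bax null group. The groups without Atoh7 also differed in depth without overlap. Their medians were 2632 and 2206 UMIs a cell in the Bax het Atoh7 null libraries, and 1940 and 1634 in those labelled Bax null Atoh7 null. Depth and Bax genotype cannot be told apart between these groups. Atoh7 had 376 and 458 UMIs in the Bax null libraries and 0 in the other 4. Bax was at 144 and 108 CPM in the Bax het Atoh7 null libraries, 17.1 and 15.0 in the Bax null libraries, and 47.7 and 11 in the libraries labelled Bax null Atoh7 null, so the first of that pair went partly against its label. Those same 2 libraries shared 2596 cell barcodes (17.6% and 22.0% of their cells, and 89.4% of the shared barcodes had the same cell type in both), where every other pair of libraries shared 126 to 223. The tests of the 8 genes were repeated with those barcodes left out, and the values that this moved past the threshold are given below, with those of Pax6.

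RPCs, RGCs and cones carried their own markers: the summed level of 8 progenitor genes was 6708 to 8816 CPM in RPCs, of 10 ganglion genes 8363 to 19135 in RGCs, and of 6 photoreceptor genes 2883 to 4610 in cones. Cones also carried 8 neurogenic genes at 1654 to 2130 CPM, the ganglion genes at 1483 to 2347 and the progenitor genes at 777 to 1350, so that label was not free of other markers. In neurogenic cells 8 neurogenic genes summed to 3862 to 5802 CPM. In both Bax null libraries the progenitor genes in that label (4394 and 5070 CPM) lay above its neurogenic genes (4342 and 3862). The horizontal label held a mixture, with 5 horizontal genes at 2026 to 2558 CPM beside 5 amacrine genes at 1083 to 1505 CPM (Tfap2b is in both lists). The ganglion genes in it were at 2217 to 3031 CPM, the progenitor genes at 1341 to 1892 and the neurogenic genes at 1380 to 2152. Its values therefore do not describe 1 kind of cell. The submitters made the labels from expression, and their table marks Pax6, Rax, Vsx1, Lhx2 and Meis2, but not Six3, Six6 or Meis1, as genes used to order cells. Levels between labels are therefore given as a description with no test. Unless stated otherwise, a level below is the UMI sum of all cells of a label in a library, in CPM scaled with TMM factors. Values are listed as Bax het Atoh7 null replicates 1 and 2, Bax null replicates 1 and 2, then the libraries labelled Bax null Atoh7 null replicates 1 and 2.

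Pax6 was highest in the horizontal label, next in RGCs, and lowest in cones. Its mean over the 6 libraries was 2238 ± 1006 CPM (SD, n = 6) in horizontal cells, 1245 ± 421 in RGCs, 722 ± 240 in RPCs, 678 ± 281 in neurogenic cells and 471 ± 199 in cones. The order held in every library except that RPCs were above neurogenic cells in 4 of 6, both Bax null libraries being the exceptions. In horizontal cells the 6 libraries gave 2116, 2128, 3311, 3515, 1256 and 1103 CPM. The 3 groups did not overlap in this label, and most of the large SD lay between groups rather than between replicates. Although RPCs had a lower level, they held 49.7% to 64.1% of all Pax6 UMIs of a library because they were the most numerous cells.

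Rax, Lhx2 and Six6 were highest in RPCs and lowest in RGCs in all 6 libraries. Rax, a factor without which no eye field forms, averaged 537 ± 19.3 CPM (SD, n = 6) in RPCs, 441 ± 27.1 in cones, 383 ± 23.5 in neurogenic cells, 200 ± 33.7 in horizontal cells and 127 ± 35.9 in RGCs, and this order held in each library. With factors computed across all labels at once, neurogenic cells came before cones, so the order of that neighbouring pair depends on the scaling. Lhx2, required for the optic vesicle to become an optic cup, averaged 293 ± 45.7 CPM in RPCs, 167 ± 6.28 in neurogenic cells, 111 ± 23.1 in horizontal cells, 94.2 ± 31.1 in cones and 49.9 ± 22.1 in RGCs. Horizontal cells were above cones in 5 of 6 libraries, and every other step of this order held in 6 of 6. Six6, which sustains progenitor proliferation, averaged 890 ± 74.0 CPM in RPCs and 307 ± 35.2 in RGCs, while horizontal cells (501 ± 48.4), cones (480 ± 53.8) and neurogenic cells (441 ± 94.3) lay within their spread over the 6 libraries. The order of these labels differed by group. Horizontal cells were above cones, and cones above neurogenic cells, in the 4 libraries without Atoh7, and the reverse held in both Bax null libraries. With factors computed across all labels, neurogenic cells came before cones on average.

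Six3, the close paralog of Six6, had a different order: 540 ± 93.4 CPM (SD, n = 6) in RGCs, 532 ± 90.6 in horizontal cells, 364 ± 57.4 in RPCs, 306 ± 81.6 in neurogenic cells and 288 ± 34.8 in cones. RGCs and horizontal cells did not differ beyond their spread over the 6 libraries, nor did neurogenic cells and cones. The latter order differed by group. Neurogenic cells were above cones in 2 Bax null libraries, in 1 Bax het Atoh7 null library and in 0 of those labelled Bax null Atoh7 null. Six3 in RGCs was thus above its level in RPCs, where Six6 in RGCs was below.

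Meis1 varied least between labels, from 200 ± 44.9 CPM (SD, n = 6) in horizontal cells and 198 ± 30.8 in RPCs to 182 ± 12.2 in neurogenic cells, 149 ± 25.7 in RGCs and 110 ± 23.3 in cones, with the first 3 within their spread over the 6 libraries. RPCs were above neurogenic cells in the 4 libraries without Atoh7 and below them in both Bax null libraries. Meis2 was by contrast concentrated in 1 label. Cones gave 933, 913, 913, 952, 779 and 794 CPM. Their mean of 881 ± 74.4 CPM was 13.6-fold that of the horizontal label (64.8 ± 37.7), and neurogenic cells (37.4 ± 1.46), RGCs (36.9 ± 9.48) and RPCs (34.5 ± 1.99) were lower still and within their spread over the 6 libraries. RGCs were above neurogenic cells and RPCs in the 4 libraries without Atoh7 and below both in the Bax null libraries. With every cell thinned to 1000 UMIs, 49.8% to 62.2% of cones had a Meis2 UMI, against 2.02% to 4.07% of RPCs and 1.61% to 4.95% of RGCs. Among the 5 cone clusters of 50 or more cells Meis2 ran from 600 to 1099 CPM over the cluster total (cluster 98 lowest, cluster 18 highest), while the highest of all other clusters, RPC cluster 99, had 146 CPM.

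Vsx1 was close to absent at this stage. It was found in 122 of 12857 neurogenic cells (0.949%), 27 of 40882 RPCs, 11 of 7357 RGCs, 3 of 2662 horizontal cells and 0 of 3292 cones, a count that allows a share of up to 0.0911% of cones with a UMI (counting error only). Its level in neurogenic cells was 3.03, 4.65, 1.59, 1.93, 3.22 and 4.34 CPM, above each other label in every library. The shares are over cells of unequal depth: the median by library was 1532 to 7142 UMIs a cell in neurogenic cells and 1165 to 3854 in cones.

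**Figure D1:**
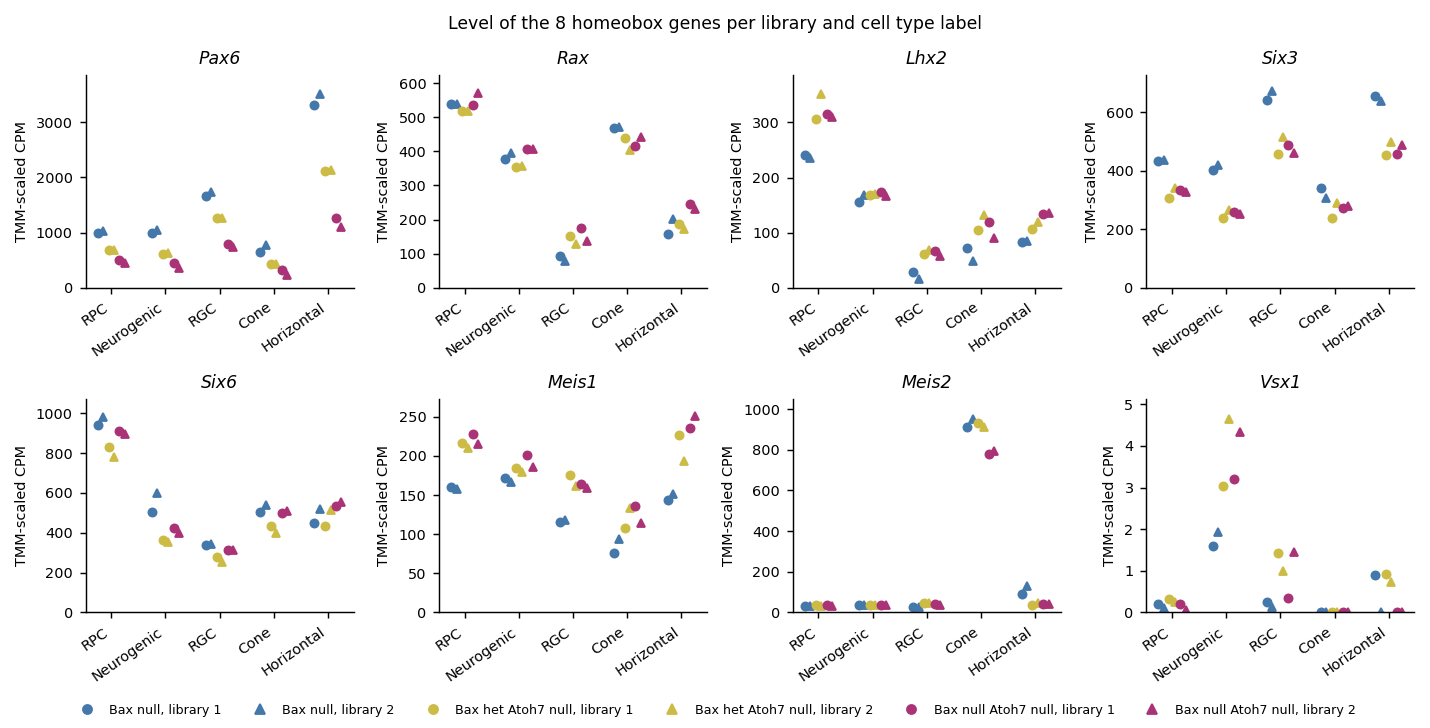
Levels of the 8 genes (vertical axes, TMM-scaled CPM from 0, a scale for each gene) in the 5 cell type labels (horizontal axis), 1 point for each of the 6 libraries, coloured by group. Pax6 separates the 3 groups in every label, Meis2 stands out in cones, and Rax, Lhx2 and Six6 peak in RPCs.

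Within labels, the genes also varied between the submitters' clusters of 50 or more cells, in CPM over the cluster total. Pax6 ran from 338 CPM (cluster 149) to 930 (cluster 95) over 84 RPC clusters, from 263 (cluster 87) to 1035 (cluster 85) over 27 neurogenic clusters and from 997 to 1455 over 20 RGC clusters. Rax ranged most in relative terms in RGCs, from 8.91 CPM in cluster 89 to 230 in cluster 53, and Lhx2 did likewise from 3.05 in cluster 67 to 87.2 in cluster 53. RPC cluster 20 was highest for Rax (774 CPM), Lhx2 (471) and Six6 (1100) together, and neurogenic cluster 150 was highest of its label for Rax (747), Lhx2 (284), Six6 (762) and Meis1 (228). RPC cluster 149 was lowest of its label for Pax6, Rax (132), Six6 (325) and Meis1 (56.3). Clusters were made from the expression of the same cells, so these ranges are a description.

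The first comparison is that of the libraries labelled Bax null Atoh7 null with the Bax het Atoh7 null libraries, which both lack Atoh7 and by sample title differ in Bax. They also differed in depth, as given above. Pax6 was lower in all 5 labels and was the one gene of the 8 that passed the test. In RPCs it gave 504 and 443 CPM in the libraries labelled Bax null Atoh7 null against 686 and 692. In neurogenic cells it gave 443 and 366 against 602 and 622, and in RGCs 790 and 735 against 1270 and 1272. In cones the values were 319 and 238 against 421 and 435, and in horizontal cells 1256 and 1103 against 2116 and 2128. The groups did not overlap in any label. In each, the first library labelled Bax null Atoh7 null lay nearer to the Bax het Atoh7 null pair than the second did. That library had more Bax and also a higher median of UMIs a cell (1940 against 1634), and a relation of either to Pax6 was not tested. Pax6 was highest in the Bax null libraries, where Bax was at 17.1 and 15.0 CPM.

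The log2 fold changes of Pax6 were −0.54 ± 0.10 (SE) in RPCs, −0.60 ± 0.12 in neurogenic cells, −0.74 ± 0.11 in RGCs, −0.61 ± 0.15 in cones and −0.85 ± 0.14 in horizontal cells. By edgeR's quasi-likelihood test with Benjamini-Hochberg adjustment over all genes of a label, the adjusted p were 0.0337, 0.0284, 0.00429, 0.0414 and 0.00215. In all, 5 of 36 tested pairs of gene and label were called at an adjusted p below 0.05, all of them Pax6 and all lower, where 1.86% of all pairs of gene and label were called (2.01% in RPCs, 1.77% in neurogenic cells, 2.34% in RGCs, 1.46% in cones and 1.61% in horizontal cells). Of the 31 pairs of the other 7 genes, 0 were called by edgeR, 3 had an unadjusted p below 0.05, and DESeq2 called 0 of 30. Six6 lay higher in the libraries labelled Bax null Atoh7 null in all 5 labels without overlap (in RPCs 909 and 894 CPM against 829 and 781), by +0.16 in RPCs, +0.20 in neurogenic cells, +0.23 in RGCs, +0.28 in cones and +0.20 in horizontal cells. None of these passed the test (edgeR adjusted p of 0.516, 0.555, 0.324, 0.504 and 0.701). The largest other difference was +0.41 ± 0.14 for Rax in horizontal cells (adjusted p = 0.223), where these libraries also lay above the Bax het Atoh7 null pair. Of all genes called in RPCs in this comparison, 261 of 269 were lower.

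Summed over all cells of a library, Pax6 gave 750 and 782 CPM in the Bax het Atoh7 null libraries, 1136 and 1186 in the Bax null libraries and 534 and 470 in the libraries labelled Bax null Atoh7 null. The 3 groups did not overlap. It was again the one gene of the 8 called between the groups without Atoh7 (−0.61 ± 0.10, SE; edgeR adjusted p = 0.0338; 1.64% of all genes called). In such sums, fewer cells of a label and less RNA per cell cannot be told apart.

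The calls for RGCs and horizontal cells were each kept under 16 of 17 alternatives, against 11 in neurogenic cells, 9 in RPCs and 5 in cones. With the shared barcodes left out, the changes were −0.50 in RPCs (adjusted p = 0.0871), −0.56 in neurogenic cells (0.0688), −0.64 in RGCs (0.034), −0.69 in cones (0.0593) and −0.75 in horizontal cells (0.0362). Leaving out the first Bax het Atoh7 null library or either Bax null library, which bear on the shared estimate of spread, ended the call in RPCs, neurogenic cells and cones (adjusted p of 0.0865 to 0.153). Without the second Bax het Atoh7 null library no label kept the call (adjusted p of 0.267, 0.289, 0.059, 0.28 and 0.103 in the same order), and with no scaling factor RPCs (−0.44, adjusted p = 0.0579) and cones (−0.51, adjusted p = 0.0929) lost it. Without the first library labelled Bax null Atoh7 null, which leaves 1 library in that group, the change was −0.64 in RPCs and −0.94 in horizontal cells. The exact permutation test of 2 libraries against 2 cannot go below 0.33, and none is given.

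The lower Pax6 could be seen without any model. Over clusters with at least 20 cells in both groups, and with no scaling factor, Pax6 was lower in the libraries labelled Bax null Atoh7 null in 122 of 123 clusters, with a median ratio of 0.714. That made 76 of 77 RPC clusters, 26 of 26 neurogenic, 9 of 9 RGC, 5 of 5 cone and 6 of 6 horizontal clusters. The clusters of a group share the same 2 libraries and are not replicates. Six6 went the other way in 117 of the 123 clusters, with a median ratio of 1.2, and Rax in 101 with 1.15, whereas Lhx2 (higher in 70) and Meis2 (higher in 63) were split. With the shared barcodes left out, Pax6 was lower in 121 of 123 clusters, and Six6 was higher in 112 and Rax in 91. These ratios carry the shift of the library totals, which moved the median of all genes by about 0.1 on the log2 scale.

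**Figure D2:**
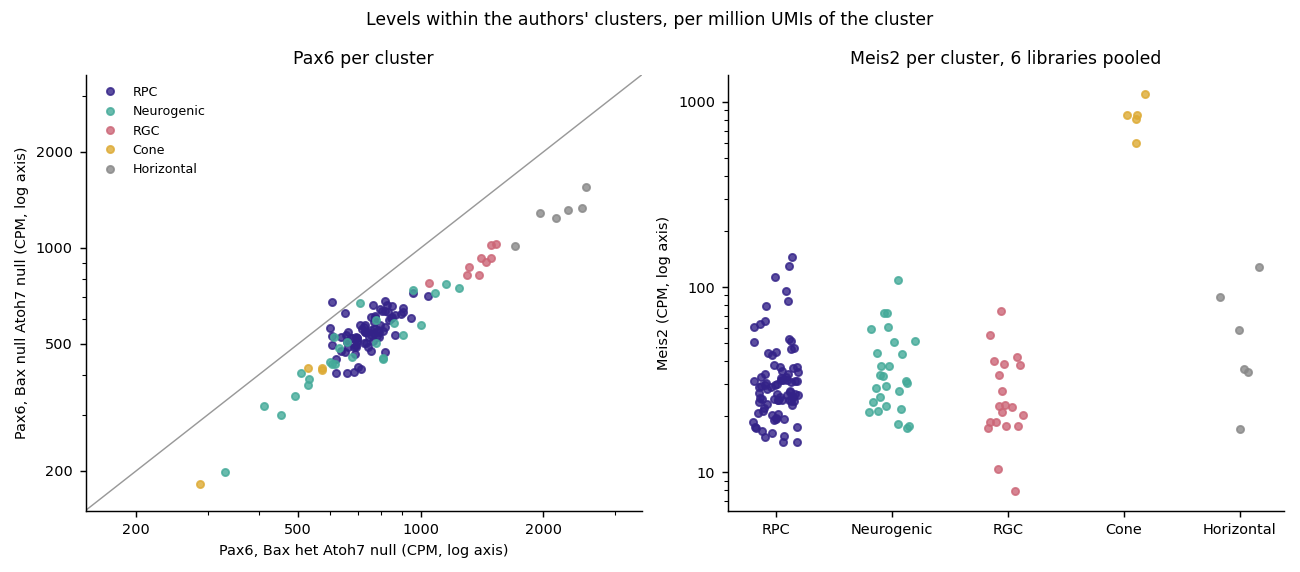
Left: Pax6 in each cluster with at least 20 cells in both groups, as CPM over the cluster's UMI total on log axes, Bax het Atoh7 null on the horizontal and the libraries labelled Bax null Atoh7 null on the vertical axis, coloured by label; 122 of 123 points lie below the line of equal levels. Right: Meis2 in each cluster of at least 50 cells by label, all 6 libraries pooled, on a log axis, with the 5 cone clusters above every other cluster.

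The lower Pax6 was also seen in the share of single cells. With each cell thinned to 1000 UMIs, cells with a Pax6 UMI made up 41.6% and 43.5% of RPCs in the libraries labelled Bax null Atoh7 null, 52.0% to 52.3% in the Bax het Atoh7 null libraries and 51.7% to 53.1% in the Bax null libraries. In horizontal cells the shares were 69.5% to 71.8%, 88.7% to 88.9% and 90.8% to 91.0%, and in RGCs 57.2% to 57.8%, 70.7% to 75.4% and 71.8% to 73.0%. The thinning left out 814 and 1261 cells of the libraries labelled Bax null Atoh7 null, 166 and 169 of the Bax null libraries and 0 of the Bax het Atoh7 null libraries, and without it the RPC shares were 61.3% to 68.0%, 80.6% to 85.5% and 94.4%. No label lacked Pax6, so no background share is available for it, and the lowest label, cones, ran from 22.4% to 36.4%. Among the UMIs of the 8 genes, a ratio on which no library total or scaling factor bears, Pax6 took 15.9% to 17.6% in RPCs of the libraries labelled Bax null Atoh7 null, 23.6% to 23.7% in the Bax het Atoh7 null libraries and 29.5% to 30.04% in the Bax null libraries. In horizontal cells these shares were 39.3% to 43.3%, 57.9% to 59.4% and 67.1% to 67.6%, and the 3 groups did not overlap in any label. This share also depends on the other genes of the 8. In RPCs the 8 together made up 0.255% and 0.259% of all UMIs in the Bax null libraries. They made up 0.321% and 0.323% in the Bax het Atoh7 null libraries and 0.325% and 0.345% in those labelled Bax null Atoh7 null. With library totals, Pax6 in RPCs changed by −0.0065 in the Bax het Atoh7 null libraries against Bax null. With the shared barcodes left out, the thinned shares of the libraries labelled Bax null Atoh7 null were 42.3% to 44.01% in RPCs, 70.2% to 73.2% in horizontal cells and 58.9% to 59.1% in RGCs. Their shares among the 8 genes were then 15.9% to 17.9% in RPCs and 42.9% to 44.3% in horizontal cells.

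**Figure D3:**
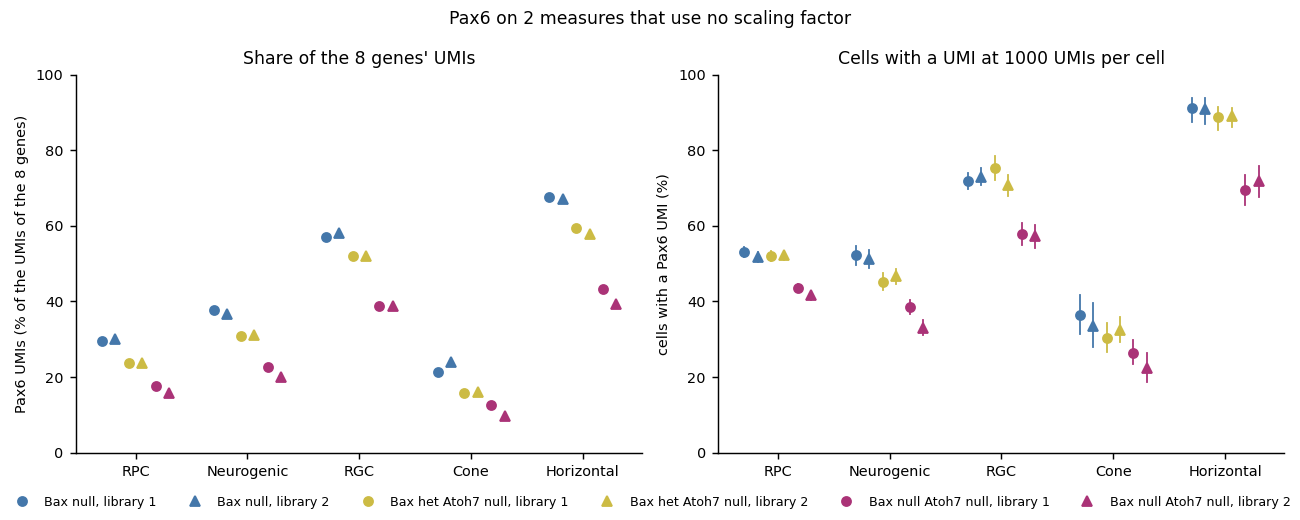
Pax6 in each library (points, by group) and label on measures that need no scaling factor: its share of the UMIs of the 8 genes (left, percent) and the share of cells with a Pax6 UMI after thinning to 1000 UMIs (right, percent, bars are 95% Wilson intervals, counting error only). The libraries labelled Bax null Atoh7 null are lowest in every label on both, whereas the thinned shares of the Bax null and Bax het Atoh7 null libraries lie close together in RPCs. The share on the left also depends on the other genes of the 8.

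The gene lies on the forward strand of chromosome 2 (GRCm38, GENCODE annotation, 105668900 to 105697364), and Six3 on the forward strand of chromosome 17 (85613608 to 85629302). Over the 30 sums of label and library, which share libraries and depth, and with each library centred, Pax6 and Six3 were the most alike pair of the 8 genes on the log scale (r = 0.901, a description). Of the 8 genes, 7 had a promoter entry in the RefSeq table, with 9 windows of 250 bases before a transcription start. TGACAG, the sequence bound by Meis proteins and read here on both strands, was present in 3 of the 9 windows, those of the second Pax6 start, Six3 and Six6, and in 15.9% of 32851 windows of that length in the genome. TAATTA and TGATAC were in none of the 9 (4.84% and 4.64% of all windows), and CAGCTG was found in the Vsx1 window alone (13.0% of all windows). The windows of Pax6 (chr2:105682213-105682462, forward strand, GRCm38.p6) and Six3 (chr17:85620584-85620833, forward strand, GRCm38.p6) are printed from RefSeq, 5′ to 3′, because Meis factors are known regulators in the eye, with the match in capitals, at positions -159 and -139 from the start.
Pax6: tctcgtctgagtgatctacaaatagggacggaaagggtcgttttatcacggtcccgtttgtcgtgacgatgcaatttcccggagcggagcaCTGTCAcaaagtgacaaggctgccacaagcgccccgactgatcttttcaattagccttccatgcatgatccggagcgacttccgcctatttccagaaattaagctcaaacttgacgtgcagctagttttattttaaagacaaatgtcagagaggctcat
Six3: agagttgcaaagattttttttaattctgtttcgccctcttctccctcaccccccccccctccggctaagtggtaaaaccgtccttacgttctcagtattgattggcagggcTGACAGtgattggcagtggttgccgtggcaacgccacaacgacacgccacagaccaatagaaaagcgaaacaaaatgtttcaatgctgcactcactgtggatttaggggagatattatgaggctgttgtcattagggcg
In the Pax6 window the match is on the reverse strand, so the letters read CTGTCA. A match of 6 bases is a description of the sequence, and no binding was measured.

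The second comparison sets the libraries labelled Bax null Atoh7 null against the Bax null libraries, which by sample title differ in Atoh7 alone. The first library labelled Bax null Atoh7 null had more Bax, and library preparation cannot be told apart from genotype here. A last comparison sets the Bax het Atoh7 null libraries against the Bax null libraries, where both genes differ. Both comparisons use the same Bax null libraries, and each called 23 of 36 pairs. In the former 12 were higher and 11 lower, where 43.7% of all pairs of gene and label were called (median log2 fold change of the 36 pairs −0.0021). In the latter 11 were higher and 12 lower, where 43% of all pairs were called (median −0.04). In both comparisons Lhx2 and Meis1 were called higher in every label but neurogenic cells, Pax6 was called lower in all 5, and Six3 was called lower in every label but cones (edgeR adjusted p = 0.201 and 0.106 there). Rax, Six6 and Meis2 depended on the label.

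By label the former called 4 of 7 in RPCs (53.9% of all genes), 4 of 8 in neurogenic cells (47.3%), 6 of 7 in RGCs (52.7%), 3 of 7 in cones (28.1%) and 6 of 7 in horizontal cells (29.2%). The latter called 4 of 7 (53.1%), 4 of 8 (47.1%), 7 of 7 (50%), 3 of 7 (27.5%) and 5 of 7 (30.2%). In RPCs and neurogenic cells the members' count was near that background. Vsx1 was tested in neurogenic cells alone, since it did not pass the filter on low counts elsewhere.

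These comparisons turn on the scaling. With library totals and no scaling factor, the median of all genes moved up by 0.64 in RPCs for the former comparison and by 0.54 for the latter, and the share of called genes in RPCs that were higher went from 49.8% to 90.6% and from 50.1% to 90.1%. Of the 23 called pairs, 18 were called in the same direction with library totals in the former comparison and 12 in the latter, and 4 and 5 turned.

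**Figure D4:**
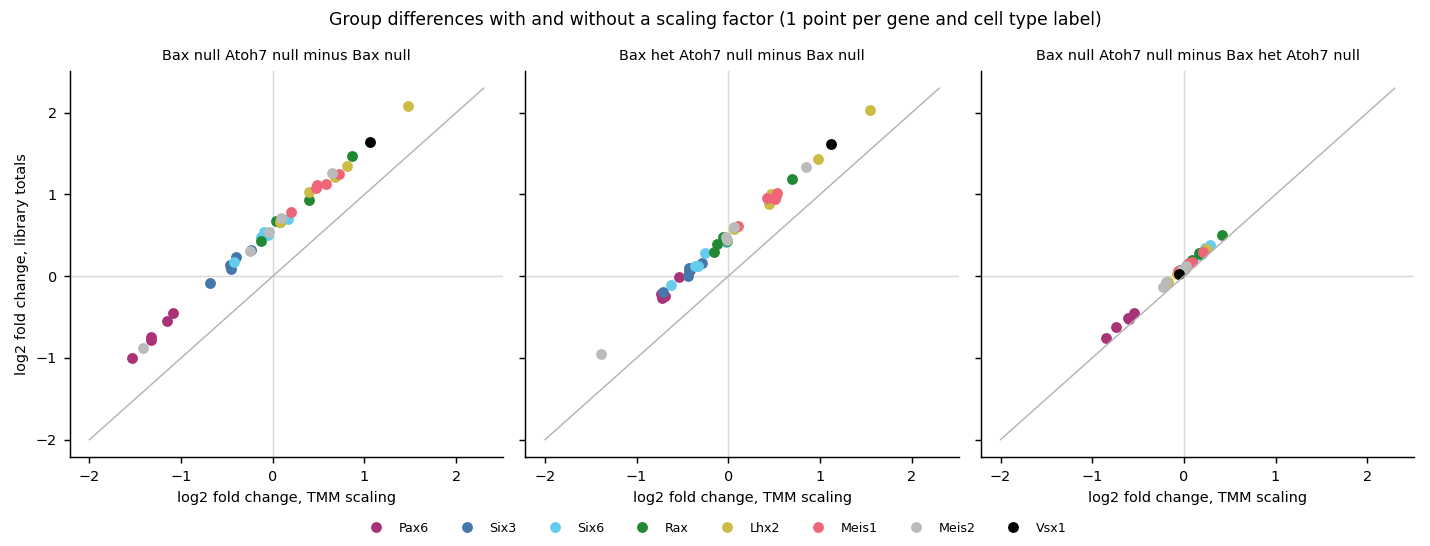
Log2 fold changes of each gene and label under TMM scaling (horizontal axis) and under library totals with no scaling factor (vertical axis) in the 3 comparisons, coloured by gene, with the line of equal values. In both comparisons with Bax null the points lie above that line, and 11 and 15 of 36 turn direction.

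Pax6 gave 983 and 1025 CPM in RPCs of the Bax null libraries, above all 4 libraries without Atoh7 (443 to 692). In neurogenic cells it gave 999.8 and 1038, in RGCs 1659 and 1743, in cones 644 and 766 and in horizontal cells 3311 and 3515, again above the other 4 in each label. Against the Bax null group its change in the libraries labelled Bax null Atoh7 null was −1.08 ± 0.10 (SE, log2; edgeR with Benjamini-Hochberg adjustment, adjusted p = 4.34e-05) in RPCs and −1.53 in horizontal cells, called in all 5 labels under each of the 17 alternatives. With library totals these changes were −0.45 in RPCs and −0.9996 in horizontal cells, and with the shared barcodes left out −1.05 and −1.43. In the Bax het Atoh7 null libraries the change was −0.54 in RPCs (adjusted p = 0.00204), −0.74 in neurogenic cells (4.1e-04), −0.42 in RGCs (0.00795), −0.72 in cones (0.001) and −0.69 in horizontal cells (0.00115). Without the second Bax null library the change in RGCs was not called (adjusted p = 0.094). With library totals this last set lost its call in all 5 labels, the change in RPCs being −0.0065 and in RGCs +0.07, and Pax6 was lower in 56 of 101 clusters, with a median ratio of 0.973.

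Six3 was higher in the Bax null libraries under TMM scaling. In RPCs it gave 434 and 438 CPM there against 306 to 341 in the other 4 libraries, with a change of −0.40 ± 0.09 (SE; edgeR adjusted p = 0.00515) for the libraries labelled Bax null Atoh7 null. For the Bax het Atoh7 null libraries it was −0.43 ± 0.09 (edgeR adjusted p = 0.00346). In neurogenic cells the changes were −0.68 and −0.71, in RGCs −0.47 and −0.43, and in horizontal cells −0.45 and −0.44, all called. With library totals the RPC changes became +0.24 and +0.10, those in RGCs and horizontal cells also turned, and those in neurogenic cells lost their call. Leaving out a Bax null library also ended the call of the former comparison in RPCs (without the second, adjusted p = 0.0549) and of both in horizontal cells (adjusted p of 0.0838 to 0.111). The latter was lost without the first Bax het Atoh7 null library in RGCs (0.0713) and horizontal cells (0.124), and without the second Bax null library in RGCs (0.0632).

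Six6 was called lower in neurogenic cells (505 and 599 CPM in the Bax null libraries against 354 to 426), with changes of −0.42 ± 0.11 and −0.62 ± 0.11 (edgeR adjusted p = 0.00918 and 8.86e-04), and in RGCs of the Bax het Atoh7 null libraries, with −0.36 ± 0.09 (adjusted p = 0.00669). With library totals the first of these became +0.17, the second was no longer called, and the one in RGCs became +0.13. The call of −0.42 was lost without the second Bax null library (adjusted p = 0.161), and that in RGCs without it (0.0665) or without the second Bax het Atoh7 null library (0.0887).

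Lhx2 and Meis1 were higher in the 4 libraries without Atoh7 under either scaling in RPCs, RGCs, cones and horizontal cells, and in neurogenic cells they passed the test with library totals but not with TMM factors. Lhx2 in RPCs gave 307, 352, 241, 236, 316 and 310 CPM. The Bax null libraries were lowest, and the change was +0.39 ± 0.09 (SE; edgeR adjusted p = 0.00639) for the libraries labelled Bax null Atoh7 null. For the Bax het Atoh7 null libraries it was +0.47 ± 0.09 (edgeR adjusted p = 0.00264). Lhx2 also rose in cones (+0.80 and +0.98) and horizontal cells (+0.68 and +0.44), but in neurogenic cells it gave +0.07 in both (edgeR adjusted p = 0.528 and 0.573). Meis1 in RPCs gave 216, 211, 160, 158, 228 and 215 CPM, with changes of +0.48 ± 0.08 (edgeR adjusted p = 9.05e-04) and +0.43 ± 0.08 (adjusted p = 0.00183). It also rose in RGCs (+0.47 and +0.53), cones (+0.58 and +0.52) and horizontal cells (+0.72 and +0.51), while in neurogenic cells it gave +0.19 and +0.10 (edgeR adjusted p = 0.0978 and 0.386). With the shared barcodes left out, the first of these became +0.26 (adjusted p = 0.0423). Some of these calls rested on 1 library: that of Lhx2 in RPCs of the libraries labelled Bax null Atoh7 null was lost without the first (adjusted p = 0.0538) or second (0.0735) Bax null library. Its call in cones there was lost without the second (0.129) or without the first library labelled Bax null Atoh7 null (0.0608). In horizontal cells of the Bax het Atoh7 null libraries, Lhx2 lost its call without any of the 4 libraries compared (0.0513 to 0.224), and Meis1 without the first of them or either Bax null library (0.0611 to 0.108). Meis1 in cones lost both calls without the first Bax null library (0.2 and 0.276), the former also without the first library labelled Bax null Atoh7 null (0.101), and the latter without the second Bax het Atoh7 null library (0.258). The shared barcodes left out also ended the former, Meis1 in cones. With no scaling factor, Lhx2 was higher than in the Bax null group in 105 of 106 clusters of the libraries labelled Bax null Atoh7 null and in 101 of 101 of the Bax het Atoh7 null libraries, and Meis1 in 106 of 106 and 101 of 101. These counts carry the upward shift of all genes under library totals, whose median in RPCs was +0.64 and +0.54. On this measure Rax was likewise higher in 104 of 106 and 99 of 101 clusters, and Six6 in 103 and 91.

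The largest differences between groups for Rax and Lhx2 were in RGCs. Lhx2 there gave 61.3 and 68.4 CPM in the Bax het Atoh7 null libraries, 29.1 and 15.7 in the Bax null libraries and 67.3 and 57.4 in the libraries labelled Bax null Atoh7 null. Changes against Bax null in this paragraph are given for the Bax het Atoh7 null libraries first, then for those labelled Bax null Atoh7 null. For Lhx2 they were +1.54 ± 0.22 and +1.48 ± 0.22 (SE, edgeR adjusted p = 9.31e-05 and 9.9e-05). Rax gave 151, 128, 94.0, 77.4, 174 and 136 CPM, with +0.70 ± 0.13 and +0.86 ± 0.13 (edgeR adjusted p = 9.84e-04 and 1.45e-04). Meis2 gave 46.5, 44.7, 25.9, 24.7, 42.1 and 37.3 CPM, with +0.85 ± 0.12 and +0.65 ± 0.12 (edgeR adjusted p = 1.19e-04 and 7.66e-04). In all 3 cases the Bax null libraries were below the other 4.

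The cells behind the RGC label were not alike in the groups. The summed level of 8 progenitor genes in RGCs was 489 to 697 CPM in the Bax null libraries against 987 to 1281 in the other 4, that of 10 ganglion genes 18075 to 19135 against 8363 to 9676, and that of 5 amacrine genes 16.2 to 16.6 against 87.3 to 114. More than 50% of the RGCs of the Bax null group lay in clusters 9, 19, 44, 92 and 67, those of the Bax het Atoh7 null group in clusters 46, 53 and 63, and those of the libraries labelled Bax null Atoh7 null in clusters 62, 53, 46 and 63. The part of these differences in the changes of Rax, Lhx2 and Meis2 was not tested. Within RGC clusters with at least 20 cells in both groups, and with no scaling factor, Lhx2 was higher than in the Bax null group in 10 of 11 clusters of the libraries labelled Bax null Atoh7 null (median ratio 2.94) and in 8 of 8 of the Bax het Atoh7 null libraries (3.54). The exception was cluster 74, at 11.2 CPM over the cluster total against 27.0. Rax was higher in 11 of 11 (median ratio 2.11) and 8 of 8 (1.86). These ratios carry the shift of the library totals, under which the median log2 change of all genes in RGCs was +0.63 and +0.50.

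In horizontal cells Meis2 went the other way, at 34.6 and 48.6 CPM in the Bax het Atoh7 null libraries, 92.9 and 129 in the Bax null libraries and 40.2 and 43.5 in the libraries labelled Bax null Atoh7 null. Both Bax null libraries were above the other 4. The changes were −1.39 ± 0.20 in the Bax het Atoh7 null libraries and −1.41 ± 0.21 in those labelled Bax null Atoh7 null (SE, edgeR adjusted p = 2.32e-05 and 2.52e-05). The summed level of 6 photoreceptor genes in this label, the cells in which Meis2 is high, was 247 to 293 CPM in the Bax null libraries against 59.8 to 100.4 in the other 4, and its part in the Meis2 difference was not tested. In the Bax null group Meis2 was at 172 CPM in horizontal cluster 45 and 126 in cluster 139, where the photoreceptor gene Otx2 was at 187 and 235 CPM. In the other 4 horizontal clusters, 57, 2, 141 and 76, Meis2 was at 55.4, 24.0, 18.0 and 10.4 CPM and Otx2 at 9.23, 40.4, 18.0 and 0, so cluster 57 had more Meis2 but less Otx2 than cluster 2. Of 5 clusters with at least 20 cells in both groups, and with no scaling factor, Meis2 was lower in 3 and higher in 2, in each comparison with Bax null. Cluster 2 gave 51.1 CPM in the Bax het Atoh7 null group and 35.6 in the libraries labelled Bax null Atoh7 null, on 38 and 21 UMIs, against 24.0 on 22 in the Bax null group. Cluster 76 gave 25.2 and 11.9 CPM on 10 and 3 UMIs, against 10.4 on 3. These ratios carry the shift of the library totals, under which the median log2 change of all genes in this label was +0.47 and +0.57, in the same order. The clusters were not compared with scaling factors, so whether Meis2 was higher in these 2 beyond that shift was not tested.

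Vsx1 in neurogenic cells was higher in the 4 libraries without Atoh7, on 14 to 30 UMIs a library. The changes were +1.06 ± 0.34 in the libraries labelled Bax null Atoh7 null and +1.11 ± 0.34 in the Bax het Atoh7 null libraries (SE, edgeR adjusted p = 0.0239 and 0.0177). Both calls were lost in DESeq2 and without either Bax null library (edgeR adjusted p of 0.0608 to 0.114), and 1 each without the second library labelled Bax null Atoh7 null (0.136) or the second Bax het Atoh7 null library (0.202). The former was also lost with the shared barcodes left out (0.0542). Rax in horizontal cells was higher in the libraries labelled Bax null Atoh7 null by +0.40 ± 0.14 (edgeR adjusted p = 0.0347), a call lost under 9 of the alternatives. Those include the shared barcodes left out (+0.13, adjusted p = 0.628) and the omission of either Bax het Atoh7 null library, the first Bax null library or the first library labelled Bax null Atoh7 null (adjusted p of 0.0603 to 0.397).

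**Figure D5:**
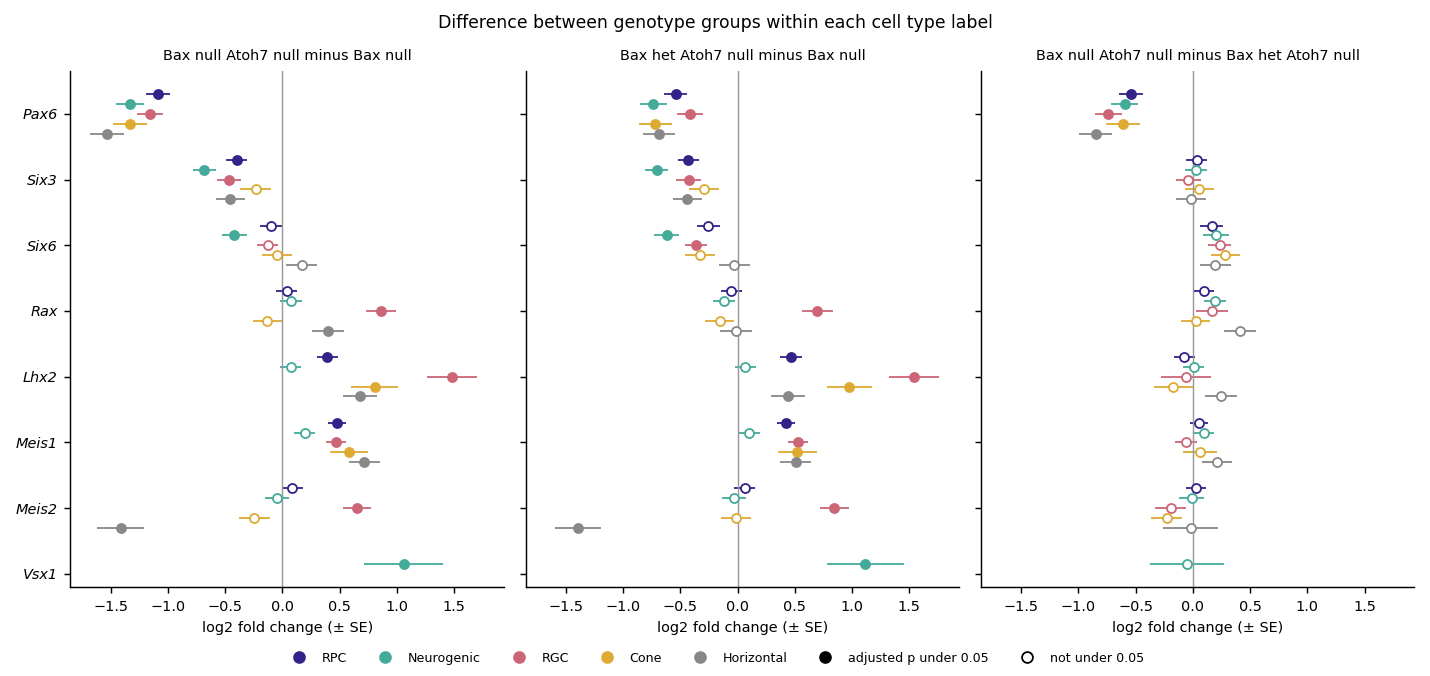
Log2 fold changes (points) with standard errors (bars) of the 8 genes in each label for the 3 comparisons, with filled points for an adjusted p below 0.05. In the comparison of the groups without Atoh7 the filled points are those of Pax6 alone.

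Whether a gene changed differently in a label than in RPCs was tested within libraries, where a factor common to all cells of a library cancels. Of 30 pairs, 12 differed for the libraries labelled Bax null Atoh7 null against Bax null (5 higher and 7 lower, where 7.87% of all pairs did) and 11 for the Bax het Atoh7 null libraries against Bax null (5 higher and 6 lower, 7.96% of all pairs). In neurogenic cells 5 genes, Pax6, Lhx2, Six3, Six6 and Meis1, had lower changes than in RPCs in both comparisons, by −0.18 to −0.39, where 7.46% and 8.35% of all genes were called. With the highest 8% of cells by UMIs left out, 3 of these 5 lost both calls: Lhx2 then gave −0.027 and −0.13 (edgeR adjusted p = 0.917 and 0.326), Six6 −0.019 and −0.063 (0.921 and 0.586) and Six3 −0.14 and −0.13 (0.135 and 0.168). The second call of Pax6 was lost in DESeq2 (adjusted p = 0.0641). The summed progenitor genes in that label were at 4394 to 5070 CPM in the Bax null libraries and 2708 to 2977 in the other 4, and their part was not tested. In RGCs, Rax (+0.85 and +0.75), Lhx2 (+1.12 and +1.08) and Meis2 (+0.59 and +0.79) had higher changes than in RPCs, where 15.7% and 15.2% of all genes were called. In horizontal cells 4 genes differed in the former comparison, Pax6 (−0.40), Rax (+0.41), Six6 (+0.31) and Meis2 (−1.46), where 3.09% of all genes did, and Six6 (+0.28) and Meis2 (−1.41) in the latter, where 2.65% did. In cones Lhx2 alone differed, in the latter comparison (+0.57 ± 0.16, 5.3% of all genes). For the comparison of the groups without Atoh7, 1 of 30 pairs was called (0.0432% of all pairs, and 0.0536% of all genes in its label): Pax6 fell further in horizontal cells than in RPCs by −0.30 ± 0.07 (SE; edgeR adjusted p = 0.0346), a call lost with the shared barcodes left out and without any 1 of 5 libraries (0.056 to 0.276), all but the first Bax het Atoh7 null library. Of the other differences named here, 8 lost their call without at least 1 library, those of Pax6, Lhx2, Six3 and Six6 in neurogenic cells in 1 comparison each, of Rax in horizontal cells, of Six6 there in both and of Lhx2 in cones. Under the other alternatives, the call of Meis2 in RGCs in the former comparison was lost in DESeq2 (adjusted p = 0.0725) and without the highest 8% of cells (+0.38, adjusted p = 0.112), and that of Lhx2 in cones in DESeq2 (0.244). In horizontal cells, Rax lost its call in DESeq2, without the highest 8% of cells and with the shared barcodes left out (+0.13, adjusted p = 0.823), and Six6 lost both in DESeq2, with DESeq2's size factors and with the shared barcodes left out.

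The genes around the 8 in the same network were followed in RPCs from lists of 18 other eye field and progenitor factors, 27 cofactors and partners, 23 related homeobox genes and 15 genes described as direct targets, of which 18, 26, 10 and 14 were tested. In the libraries labelled Bax null Atoh7 null against Bax null, 40 of the 68 genes were called (58.8%), where 53.9% of all genes in RPCs were. Of the factors, 2 were higher and 8 lower (median −0.17), and of the cofactors 4 higher and 12 lower (median −0.32). Further, 3 related homeobox genes were higher and 1 lower (median 0.43) and 6 targets higher and 4 lower (median 0.20), where the median of all genes was 0.01. In the Bax het Atoh7 null libraries against Bax null 41 of 68 were called (60.3%, against 53.1% of all genes), with counts of 3 and 9, 3 and 11, 3 and 2, and 6 and 4. Both shares lay near those of all genes. For the comparison of the groups without Atoh7, 1 of these 68 genes was called, where 2.01% of all genes were.

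That gene was Hes1, a Notch effector that keeps progenitors undifferentiated. It gave 355 and 318 CPM in RPCs of the Bax het Atoh7 null libraries, 2057 and 2204 in the Bax null libraries and 219 and 220 in the libraries labelled Bax null Atoh7 null. The last pair was below the first by −0.62 ± 0.11 (SE, edgeR adjusted p = 0.0232), a call lost with the shared barcodes left out (−0.49, adjusted p = 0.135). Both were far below the Bax null libraries, by −2.66 in the Bax het Atoh7 null libraries and −3.28 in those labelled Bax null Atoh7 null. Changes against Bax null are given in that order in the rest of this paragraph. Sox2, a progenitor factor that acts with Pax6, gave 372, 428, 295, 299, 445 and 448 CPM and was higher without Atoh7 (+0.43 and +0.59). Among cofactors, the LIM domain binding protein Ldb2, a partner of Lhx2, rose by +1.19 ± 0.11 and +1.18 ± 0.11 (edgeR adjusted p = 4.19e-05 and 4.1e-05), whereas its paralog Ldb1 fell by −0.66 and −0.81. Among described targets, the ephrin receptor gene Epha3 rose by +1.66 and +1.5, and the transcription factor gene Maf (−1.06 and −0.96) and the gene Mab21l1 (−0.71 and −0.61) fell. The upward shift under library totals given above applies to these genes too.

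On that same measure, Pearson's r of log2(CPM + 1) centred within libraries over 30 sums of label and library among 7196 genes, the genes most like each of the 8 were named by rank as a description. Pax6 was nearest to Gm266 (r = 0.977) and Pcsk2 (0.966), Rax to Lman1 (0.971) and Iqgap2 (0.961), Lhx2 to the progenitor factor Sox2 (0.971) and the ribosomal protein gene Rpl35a (0.969), and Six3 to Pgrmc1 (0.949) and Nav2 (0.946). Six6 was nearest to Rpl24 (0.950) and Sfr1 (0.939), Meis1 to Gpc6 (0.967) and Dkk3 (0.920), Meis2 to Gm13974 (0.992) and the cone channel gene Cngb3 (0.989), and Vsx1, on few UMIs, to Eny2 (0.900) and Ak6 (0.898). The points share libraries, depth and labels, and no p is given. Within the 8, the least alike pairs were Rax with Six3 (r = -0.828) and Meis1 with Meis2 (r = -0.804).

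Some of the 8 genes lie over others. GENCODE places the antisense gene Pax6os1 over the start of Pax6 (308 to 682 UMIs a library), Raxos1 over Rax (47 to 96), Gm27197 over Lhx2 (88 to 362) and Gm28528 over Six3 (11 to 58). Gm16140 and Gm16141 lie over Meis1 (132 to 575 and 406 to 706), and the coding gene 4930447C04Rik over the start of Six6 (857 to 1489). Whether counting used strand is not given in the sources used here, so reads of these pairs could not be told apart with certainty. Some other annotated genes over these loci, among them Six3os1 over Six3, were not in the count table. Vsx1 and Meis2 had no overlapping gene.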

How the data were processed

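Whole-number UMI counts per gene and cell were deposited by the authors for all libraries in 1 table, with a cell table giving library, cell type, cluster and total. Per the submitters' processing notes Cell Ranger 1.2.1 and mm10 were used, with no role stated, and whether doublets were removed is not given in the sources used here. Barcodes were mapped to samples by the library names in the cell table, and 2 further libraries (26078 cells) were not used because no sample here matches them. No cell was filtered further and no doublet caller was run.

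Counts were summed by label and library and tested with edgeR 4.0.16 in R 4.3.3 (filterByExpr, TMM factors, quasi-likelihood F test over the 6 libraries, Benjamini-Hochberg adjustment over all genes of a label, threshold 0.05). A standard error is the absolute log2 fold change divided by the root of F. A fit over each label and RPCs with library as a block tested whether a change differed between them. Alternatives were DESeq2 1.42.0, its size factors in edgeR, no filter on low counts, only the 4 libraries compared, each library left out, a replicate block, thinned totals, cells under 1000 UMIs or the highest 8% left out, and mitochondrial and ribosomal genes left out. Shares, thinning and intervals used Python 3.11.15 with scipy 1.17.1, and loci GENCODE M21 (GRCm38). The scripts were tested on simulated data. The 8 genes, the gene lists and the tests were chosen with earlier results of these data known. All 8 genes are named in every label; of each list the 2 called genes with the highest and the 2 with the lowest change per comparison in RPCs could be named, and for each of the 8 the 2 most like it. The labels do not say that a replicate number marks a shared batch or animal, so the number was used as a name, with a block on it as an alternative. Cell barcodes shared by 2 libraries were counted in both, and left out in an alternative chosen after seeing the data, as was the one without scaling factors.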

Additional observations from a re-analysis of the deposited data

Results flagged for a closer look

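Changes that differed from those in RPCs of the same libraries, by the test of that difference (edgeR with library as a block, Benjamini-Hochberg adjusted p below 0.05), are listed here on the log2 scale with no explanation. In neurogenic cells they were, for the libraries labelled Bax null Atoh7 null against Bax null, −0.23 for Pax6, −0.30 for Lhx2, −0.26 for Six3, −0.30 for Six6 and −0.26 for Meis1. For the Bax het Atoh7 null libraries against Bax null they were −0.18 for Pax6, −0.39 for Lhx2, −0.27 for Six3, −0.35 for Six6 and −0.31 for Meis1. With the highest 8% of cells by UMIs left out, those of Lhx2 (−0.027 and −0.13), Six3 (−0.14 and −0.13) and Six6 (−0.019 and −0.063) were no longer called in either comparison.

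In RGCs the differences were 0.85 for Rax, 1.12 for Lhx2 and 0.59 for Meis2 in the former comparison, and 0.75, 1.08 and 0.79 in the latter. In cones Lhx2 differed by 0.57 in the latter comparison. In horizontal cells the former gave −0.40 for Pax6, 0.41 for Rax, 0.31 for Six6 and −1.46 for Meis2, and the latter 0.28 for Six6 and −1.41 for Meis2. Those of Rax and Six6 there were no longer called in DESeq2 or with the shared barcodes left out. Pax6 in horizontal cells differed by −0.30 between the groups without Atoh7, a call lost with the shared barcodes left out. No gene had a single library far from the others of its group that could be tested, since each group held 2.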

How the results depend on the processing

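Over 87 results and 1359 values under alternatives, 1190 kept direction and side of the threshold, 138 lost their call, 10 gained one and 21 turned. In the comparison of the groups without Atoh7, the 5 called pairs became 2 with only the 4 libraries compared, 2 with shared barcodes left out, 3 with library totals and 0 to 5 with 1 library left out at a time, the 0 being without the second Bax het Atoh7 null library. Over all genes, its 1005 calls became 596, 472 and 162 to 2115 with those first 2 settings and with 1 library left out. Its 1 difference from RPCs became 0 in DESeq2, 0 without the highest 8% of cells by UMIs, 0 with shared barcodes left out and 0 to 1 with 1 library left out. The 23211 calls of the Bax het Atoh7 null libraries against Bax null ranged from 15145 (without the second Bax null library) to 25912. The cause was not tested for any of these.

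With library totals the directions of 13 results turned. Against Bax null, the libraries labelled Bax null Atoh7 null then gave 0.24 for Six3 and 0.54 for Six6 in RPCs, 0.17 for Six6 in neurogenic cells, and 0.14 and 0.082 for Six3 in RGCs and horizontal cells. The Bax het Atoh7 null libraries gave 0.48 for Rax, 0.10 for Six3 and 0.28 for Six6 in RPCs, 0.071 for Pax6, 0.063 for Six3 and 0.13 for Six6 in RGCs, and 0.0043 for Six3 in horizontal cells. Between the groups without Atoh7, Lhx2 in RPCs gave 0.026. The remaining reversals were all of RPC changes that were not called. With 1 library left out at a time, Rax ranged from −0.0082 to 0.084 and Meis2 from −0.027 to 0.19 in the libraries labelled Bax null Atoh7 null against Bax null, and Lhx2 from −0.17 to 0.029, Six3 from −0.043 to 0.11 and Meis2 from −0.088 to 0.12 between the groups without Atoh7. With shared barcodes left out, Meis2 gave −0.0197 and −0.075 in these comparisons.

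With the replicate number as a block the called pairs were 23, 4 and 23 for the comparisons that by sample title concern Atoh7, Bax and both, in that order, and the calls over all genes 23602, 1232 and 23292. Over 5553 genes, the differences between replicates correlated at r = 0.017 between Bax null and Bax het Atoh7 null, −0.127 between Bax null and the libraries labelled Bax null Atoh7 null, and 0.395 between the groups without Atoh7. The numbers were therefore not taken to pair the libraries in all groups. Vsx1 rested on 14 to 30 UMIs a library in neurogenic cells.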
